A study of Saccharomyces cerevisiae with 12 samples.

Results

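Genes outside chromosome IX were compared between a budding yeast strain lacking HCM1 and its wild type. The comparison rests on 2 dye-swapped 2-colour arrays, called Exp 1 and Exp 2, which the labels title as wild type against Δhcm1. Of 6174 ORFs in the deposited table, 5161 had a value on both arrays; 193 of these lie on chromosome IX and the other 4968 are described here. Genes of chromosome IX, with a median log2 ratio of -0.92 in the deletion, were set aside by systematic name. The wild type CML128 was of mating type MATa and carried mutant alleles of URA3 (ura3-52), HIS4, LEU2 and TRP1, and the deletion strain MJRC05 was CML128 with hcm1::natMX4, so both strains carry the same auxotrophic alleles. Whether MJRC05 is 1 clone or several is not given in the labels. Both cultures grew exponentially in YPD rich medium at 30 °C with no doxycycline. On Exp 1 the deletion was labelled with Cy5, and on Exp 2 with Cy3.

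Hcm1 is a forkhead transcription factor of S phase. It is known for activating genes of chromosome segregation, spindle dynamics and budding, and genes of further cell cycle regulators that act later in the cycle. It is also known to take part in the switch to respiratory metabolism and in stress resistance when nutrients run low. In RNA from a whole growing culture, fewer cells in a cycle phase and less RNA per cell cannot be told apart.

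Values below are log2 ratios of deletion over wild type, centred on each array's median, so that a negative value means a lower signal in the deletion; ± gives the SD of the 2 arrays (n = 2 arrays of 1 RNA pair). HCM1 itself read -3.55 on Exp 1 and -3.18 on Exp 2, a mean of -3.36 ± 0.26 or 10.3-fold lower. It was the lowest gene off chromosome IX on both arrays. Across the 4968 genes, the quartiles of the mean were -0.23 and 0.20, 2441 genes lay below 0 and 2527 above, and the tail was longer on the low side: the 1st percentile was -0.99 and the 99th was 0.63. The 2 arrays correlated across genes with a Pearson r of 0.48 and a Spearman rho of 0.45 (n = 4968 genes, which are not independent replicates and share the same RNA), and 63.7% of genes had the same sign on both. The median SD of a gene was 0.19.

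A signal at least 1.5-fold lower on both arrays was measured for 161 genes, 3.24% of those off chromosome IX against 5.54% of all ORFs, and one at least 1.5-fold higher for 9 genes, 0.181% against 0.213%. At least 2-fold, the counts were 28 (0.564%) and 0. None of these counts is a test. In the limma test on 1 value per comparison, whose residual came from the 3 control comparisons of the series, 0 of 2474 genes off chromosome IX passed (0%, Benjamini-Hochberg adjusted p below 0.05), with 5 genes at an unadjusted p below 0.05; HCM1 had a p of 0.000567 and an adjusted p of 0.9997. Without the control at 10 h of doxycycline, 2 genes passed, HCM1 (limma adjusted p = 1.95e-07) and RPN1 (limma adjusted p = 0.00576). Treating the arrays as replicates, 97 genes passed (1.95%), and with the dye orientation as a block, which is the replicate block here, 740 of 4283 passed: 436 lower (10.2%) and 304 higher (7.1%). Those last 2 fits count the arrays of 1 RNA pair as replicates, so their p-values cover array spread and say nothing about how far 2 cultures differ. The fit on 1 value per comparison took its 3 controls as unchanged. Yet in the control at 10 h of doxycycline, 10.8% of genes were at least 1.5-fold lower on both arrays and 10.6% higher. Such changes enter the residual, so the count of 0 does not show that no gene differed. The words higher and lower are therefore used for measured values, and a gene "past the array block" is one of the 740.

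**Figure D1:**
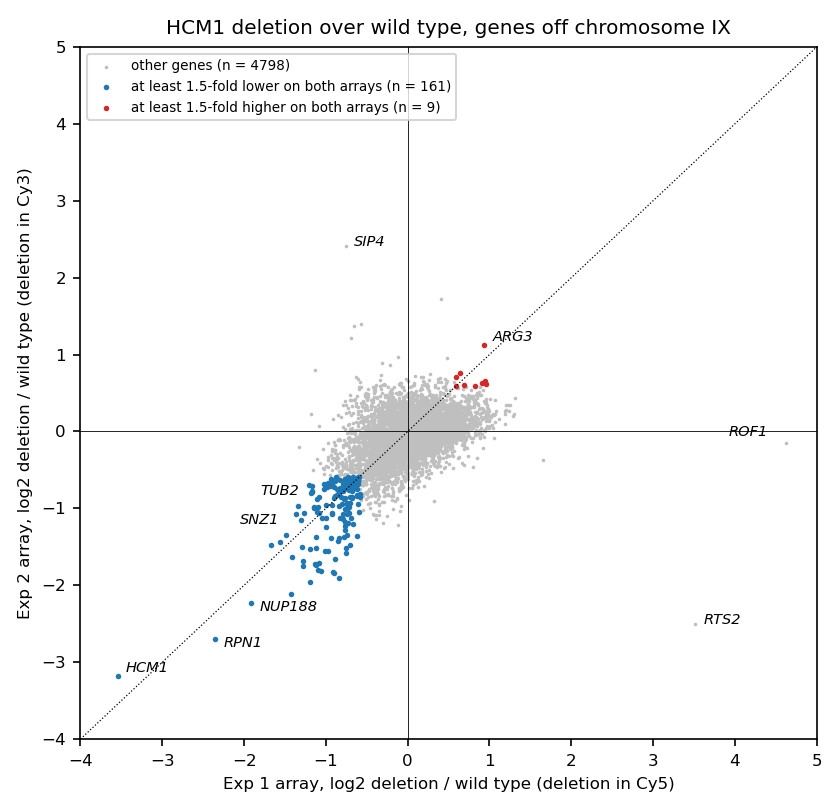
Log2 ratio of deletion over wild type on Exp 1 (horizontal) and Exp 2 (vertical), 1 point per gene off chromosome IX. Blue points are the 161 genes at least 1.5-fold lower on both arrays and red points the 9 at least 1.5-fold higher; HCM1, RPN1 and NUP188 lie at the lower left, and RTS2, ROF1 and SIP4 lie far from the diagonal.

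The scatter of the 2 arrays shows how few genes stood apart in the same direction on both. Next to HCM1, the lowest was RPN1, a scaffold subunit gene of the proteasome regulatory particle, at -2.35 on Exp 1 and -2.70 on Exp 2. NUP188, a nuclear pore scaffold gene, read -1.91 and -2.23, and MIS1, the mitochondrial folate enzyme, -1.42 and -2.12. For each of these the Exp 2 value was the lower one. TCB3, which encodes a tether of endoplasmic reticulum and plasma membrane, read -1.19 and -1.96. MPT5, a Puf-family RNA-binding protein gene, read -1.67 and -1.48, and XRN1, the cytoplasmic 5′ to 3′ exonuclease of mRNA decay, -1.19 and -1.52. MPT5 and XRN1 were thus each at least 2-fold lower on both arrays, but no list of mRNA turnover genes was drawn up. ULS1, a DNA translocase gene, read -1.28 and -1.75, and BPT1, a vacuolar ABC transporter gene, -1.28 and -1.68. MDS3 read -1.41 and -1.64, and SNZ1, of vitamin B6 synthesis, -1.31 and -1.15. The remaining genes of the lowest 15 were APQ13 (-1.56 and -1.43), YBL100C (-1.49 and -1.35), YLR012C (-1.29 and -1.51), YLR339C (-1.13 and -1.72) and YLR162W (-1.12 and -1.51). All 15 were past the array block, with limma adjusted p from 0.000314 to 0.0199. They were chosen by size on the same 2 arrays that this fit tests, so passing adds no separate support. Only 5 of the 15 had enough control values for the limma test on 1 value per comparison, and each had an adjusted p of 0.9997.

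The highest genes lay closer to 0. ARG3, the ornithine carbamoyltransferase of arginine synthesis, read 0.94 on Exp 1 and 1.13 on Exp 2, a mean of 1.03 ± 0.14 or 2.05-fold. The 9 genes at least 1.5-fold higher on both arrays included 3 of sulphur amino acid use: MMP1, the S-methylmethionine permease gene, at 0.95 and 0.66; SAM3, the S-adenosylmethionine permease gene, at 0.96 and 0.62; and MHT1, the methyltransferase that makes methionine from S-methylmethionine, at 0.69 and 0.61. ZRT1, the high-affinity zinc transporter gene, read 0.91 and 0.63, and CHA1, the serine and threonine deaminase gene, 0.82 and 0.59. Besides these and ARG3, they were YAR069C (0.64 and 0.75), PUN1 and MPD1 (0.59 and 0.71), the last a gene of the protein disulphide isomerase family. PDR5, the main drug efflux pump gene, read 0.71 and 0.58, and URA1, of pyrimidine synthesis, 0.60 and 0.56. CIT2, the peroxisomal citrate synthase gene, read 0.57 and 0.64, and ELO2, a fatty acid elongase gene, 0.67 and 0.55. The highest 15 also held YOR102W (0.88 and 0.58) and TSR2 (0.62 and 0.57). Of the 11 that could be fitted, 10 were past the array block, and PUN1, at 0.59 on both arrays, was not (limma adjusted p = 0.0929). Here too the genes were chosen by size on the arrays that the fit tests, so passing adds no separate support.

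**Figure D2:**
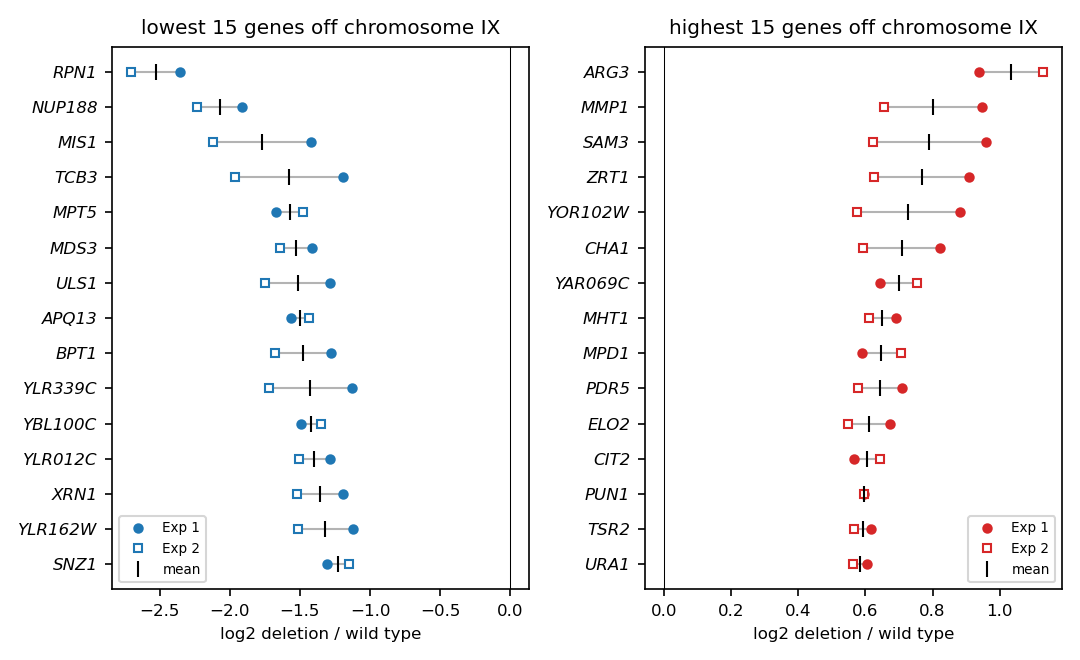
Log2 ratio of deletion over wild type of the 15 lowest (left) and 15 highest (right) genes off chromosome IX other than HCM1, chosen by the smaller absolute value of the 2 arrays and drawn in order of their mean; filled circles are Exp 1, open squares Exp 2 and bars the mean of the 2. The low means span -2.53 to -1.23 and the high means 0.58 to 1.03, on axes of different range.

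The plot of both ends shows that the low genes reached further from 0 and differed more between the arrays, with a median SD of 0.24 against 0.090 for the high genes; closeness of the arrays was part of how both ends were chosen. Genes whose arrays differ more, such as SPT16 at -0.84 and -1.90, can have a mean beyond those shown.

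Genes of the spindle, the class Hcm1 is best known for, were mostly lower. Of 23 measured genes of tubulin, spindle motors and the midzone, 19 lay below 0, with a median of -0.20 against 0.0056 for all genes off chromosome IX, and medians of -0.24 on Exp 1 and -0.20 on Exp 2. TUB2, the beta-tubulin gene, was lowest at -1.05 and -1.12, followed by ASE1, the midzone bundling protein gene, at -1.11 and -0.88. KAR3, a minus-end kinesin gene, read -0.69 and -0.52. TUB2 and ASE1 were not low in the deletion alone: over the own promoter, with HCM1 in excess, they had means of -0.43 and -0.52, and in the tet strain without over with 10 h of doxycycline -1.20 and -0.98. In the tagged strain with over without doxycycline, TUB2 had means of -0.88 at 4 h and -0.84 at 10 h. The list as a whole did not follow in the tet comparisons, with medians of -5e-05 over 15 genes and 0.11 over 18 in the same order. Its medians in the tagged strain were 0.0068 over 6 genes at 4 h and -0.14 over 4 at 10 h. In the deletion, the genes above 0 included CIN2, of tubulin folding, at 0.43 and 0.50, and TUB4, the gamma-tubulin gene, at 0.25 and 0.19. With the array block, 5 of 18 fitted genes were lower (27.8%) and 0 higher, beside 10.2% and 7.1% of all genes.

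At the kinetochore the picture was mixed. Of 34 measured genes of the kinetochore and passenger complex, 21 were below 0, with a median of -0.10 that was -0.18 on Exp 1 and -0.03 on Exp 2. MTW1, of the MIND complex, read -0.75 and -1.08, and BIR1, the survivin homologue of the passenger complex, -0.86 and -0.57. The spindle checkpoint genes diverged: MAD3 read -0.89 and -0.35, while MAD2 read 0.62 and 0.27. MCM22, of the Ctf19 complex, was at 0.27 and 0.31. Of 27 genes fitted with the array block, 4 were lower (14.8%) and 1 higher. Spindle pole body genes had a median of -0.07 over 13 genes, with SFI1, of the half-bridge, at -0.58 and -0.49, and SPC42, of the central plaque, at 0.91 on Exp 1 and -0.04 on Exp 2.

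Among cell cycle transcription factors, 12 of 18 measured genes, HCM1 included, lay below 0, with a median of -0.13. SWI4, the DNA-binding subunit of the G1/S factor SBF, read -0.55 and -1.03, and MCM1, the MADS-box partner of the G2/M factors, -0.39 and -1.09. Both were lower on Exp 2 than on Exp 1. ASH1, the daughter-cell repressor of mating type switching, was higher at 0.47 and 0.34. Cyclin and CDK genes centred near 0, with a median of 0.02 over 18 genes and 0 of 16 past the array block. Their lowest member was CLB2, the main mitotic cyclin gene, at -0.52 and -0.22, and the highest was CLN1, a G1 cyclin gene, at 0.22 and 0.28.

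Mitotic exit and cytokinesis genes were lower in 23 of 33 cases, with a median of -0.24. CYK3, of the cytokinesis checkpoint, read -0.66 and -0.70, MLC1, a myosin light chain gene, -0.53 and -0.57, and SHS1, a septin gene, -0.64 and -0.44. The 2 arrays gave close values for these 3 genes. The list's median was -0.10 with the trend on coding length removed. DNA replication and cohesion genes were split, 32 of 56 lying below 0, with a median of -0.06. Subunits of the replicative helicase differed among themselves: MCM3 read -1.12 and -1.73, MCM7 -0.78 and -0.74, while MCM5 stood at 0.54 and 0.09. MCM5 was the fourth highest of its list and was picked after its value was seen. PSF3, of the GINS complex, read 0.40 and 0.51.

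Sterol synthesis genes were mostly higher. Of 26 measured genes, 24 lay above 0, with a median of 0.38, which was 0.47 on Exp 1 and 0.28 on Exp 2. ERG2, the sterol isomerase gene, read 1.19 and 0.23, ERG3, the sterol desaturase gene, 0.97 and 0.34, and ERG11, the lanosterol demethylase gene, 0.77 and 0.46. These are the 3 highest of the list, and each read higher on Exp 1. IDI1, of isoprenoid supply, was lower at -0.42 and -0.23, and MVD1 split at 0.37 and -0.43. With the array block, 13 of 26 were higher (50%) and 0 lower. None of the 26 reached 1.5-fold on both arrays. Among fatty acid and phospholipid genes, 16 of 25 lay above 0, with a median of 0.16; the elongation enzyme genes PHS1 (0.96 and 0.19), ELO3 (0.71 and 0.44) and TSC13 (0.74 and 0.36) were highest, while ECT1, of phosphatidylethanolamine synthesis, read -0.62 and -0.66.

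Genes of cytosolic ribosomal proteins were higher in 41 of 51 cases for the small subunit and 57 of 73 for the large one, with medians of 0.33 and 0.27. The arrays disagreed on the size: the small subunit genes had a median of 0.58 on Exp 1 and 0.05 on Exp 2, and the large subunit genes 0.55 and 0.0028. RPS22A read 0.98 and 0.29, and RPL14A 0.99 and 0.29. RPS14A went the other way at -0.59 and -0.86, as did RPL2A at -0.09 and -1.04. Many of these genes exist as near-identical pairs whose signals an array cannot fully separate. With the array block, 19 of 50 small subunit genes (38%) and 24 of 71 large subunit genes (33.8%) were higher, and 1 of each was lower. Genes that build ribosomes read mostly below 0: of 68 genes of ribosome biogenesis and RNA polymerase I, 48 lay below 0, with a median of -0.11, led by UTP9 (-0.90 and -0.72), of the early processome, and RRP12 (-0.89 and -0.64), of ribosome export. That difference between the lists was not tested.

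Hexose transporter genes and the list of general stress, trehalose and glycogen genes were mostly lower. Of 15 hexose transporter and glucose sensing genes, 14 lay below 0, with a median of -0.27. HXT15 read -0.73 and -1.19, HXT5, a transporter gene of slow growth, -0.77 and -0.70, and MTH1, a repressor of transporter genes, -0.35 and -0.94. HXT15 has near-identical relatives in the same family, so its signal may not be its own. In the general stress, trehalose and glycogen list, 21 of 31 lay below 0, with a median of -0.21. TSL1, of trehalose synthesis, read -0.77 and -1.01, GSY1, a glycogen synthase gene, -0.71 and -0.70, and GAC1, which targets a phosphatase to glycogen synthase, -0.81 and -0.55. With the array block 7 of 31 were lower (22.6%) and 0 higher. Chaperone genes followed in part, with 23 of 37 below 0 and a median of -0.12. SSE2 read -1.17 and -0.79 and SSA4 -0.93 and -0.68, both heat-inducible chaperone genes, while CPR6, a cyclophilin gene, read 0.37 and 0.38.

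Respiration showed no common direction. Respiratory chain and ATP synthase genes had 19 of 35 below 0 and a median of -0.08, from COX6 at -0.90 and -0.35 to QCR10 at 0.55 and 0.32. TCA cycle genes had a median of 0.02 over 22 genes, with IDH1, of isocitrate dehydrogenase, at -0.49 and -0.78 opposite CIT2. The NAD synthesis and sirtuin list had a median of -0.02 over 19 genes, with PNC1, the nicotinamidase gene, lowest at -0.46 and -0.29. Glycolysis and fermentation genes had a median of 0.08 on Exp 1 and -0.11 on Exp 2, and only 5 of 29 had the same sign on both arrays.

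As the plot of list medians shows, 20 of 37 lists had a median above 0 and 17 below, and for 15 lists the 2 arrays differed in sign. Lists near 0 could still hold genes far from it in both directions. In sulphate, methionine and S-adenosylmethionine metabolism, 15 of 32 genes lay below 0 and 17 above, with a median of 0.02. Its 3 lowest genes were MET3 (-0.78 and -0.88), for ATP sulphurylase, MET5 (-0.77 and -0.62), for sulphite reductase, and SUL2 (-0.39 and -0.80), for a sulphate permease. Its 3 highest were MMP1, SAM3 and MUP1, the last a methionine permease gene at 0.94 and 0.37. In arginine metabolism, ARG3 stood opposite CAR1, the arginase gene, at -0.61 and -0.74.

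Of 17 drug resistance genes, 7 lay below 0 and 10 above. PDR1, the master activator gene of pleiotropic drug resistance, read -0.85 and -1.43, and YRR1, another zinc cluster activator gene, -0.78 and -0.75, the 2 lowest of the list, while its highest, PDR5, was among the highest 15 named above. With the array block, 2 of 17 were lower (11.8%) and 2 higher. In oxidative stress defence the thioredoxin genes were opposed, TRX2 at -0.59 and -0.82 and TRX1 at 0.85 and 0.37. Metal uptake genes lay above 0 in 19 of 29 cases, with SMF3 (0.83 and 0.47), a vacuolar iron transporter gene, and SIT1 (0.75 and 0.46), a siderophore transporter gene, next to ZRT1. In phosphate starvation 13 of 20 lay above 0, with VTC1, of polyphosphate synthesis, at 0.76 and 0.46. Pheromone response and a-cell genes lay above 0 in 24 of 31 cases, with a median of 0.31 on Exp 1 and 0.01 on Exp 2. STE14 (0.88 and 0.48) and STE24 (0.94 and 0.39), both of a-factor maturation, led them.

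Single members of large complexes stood far from the rest of their lists. In the proteasome, RPN1 and RPN11, the lid deubiquitinase gene at -1.08 and -0.86, were low, while the median of 35 genes was 0.04 and PUP1 read 0.51 and 0.37. In the nuclear pore, NUP188 and NSP1, a central channel gene at -1.09 and -1.81, were low, while the median of 30 genes was -0.02 and POM33 read 1.00 and 0.26. The FACT subunit gene SPT16 read -0.84 and -1.90 in a histone and chromatin list with a median of 0.07, and the corepressor gene CYC8 -0.91 and -1.84 in a list of corepressor, Mediator and SWI/SNF genes with a median of -0.10. Both read about 1 log2 unit lower on Exp 2 than on Exp 1. In all, 38 of the 161 lower genes and 6 of the 9 higher ones belong to at least 1 of the 37 lists. The lists hold 1183 of the 4968 genes, so lower genes were in a list about as often as all genes.

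The neighbours of HCM1 on chromosome III did not share its drop. On one side TAH1 read 0.77 and 0.16, TVS1 0.75 and 0.24, and BUD31 0.55 and -0.0014. On the other side RAD18, the ubiquitin ligase gene of postreplication repair and the nearest measured gene, read 0.48 and 0.95, SED4 0.70 and 0.15, and ATG15 -0.40 and -0.02. Of these, RAD18 (0.71 ± 0.33), TAH1 and TVS1 were past the array block (limma adjusted p = 0.0109, 0.0297 and 0.0297). HIS4, mutated in both strains by the labels, read -0.86 and -0.82.

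Coding length moved with the ratio. Across 4701 genes with a length in the RefSeq gene table, the Spearman coefficient of length and mean log2 ratio was -0.30, and it was -0.28 on Exp 1 and -0.21 on Exp 2 (genes are not independent, and the points share RNA and labelling). Ranked by length into 10 groups, the 471 shortest genes had a median of 0.17 and the 470 longest -0.18. Of the longest group, 7.23% were at least 1.5-fold lower on both arrays, against 2.55% of the shortest. The 134 lower genes with a length had a median of 1864.5 bases, against 1254 for all, and 21.6% of them were at least 3000 bases long, against 8.27% of all. With a smooth trend on length removed, 125 genes were at least 1.5-fold lower and 102 of the 134 remained, among them all 13 of the lowest 15 that have a length. List medians moved unevenly with that removal. The median of tubulins, spindle motors and midzone went from -0.20 to -0.15. Spindle pole body genes went from -0.07 to 0.01 and sterol synthesis genes from 0.38 to 0.39. The part of RNA or cDNA quality in the relation to length was not tested.

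**Figure D3:**
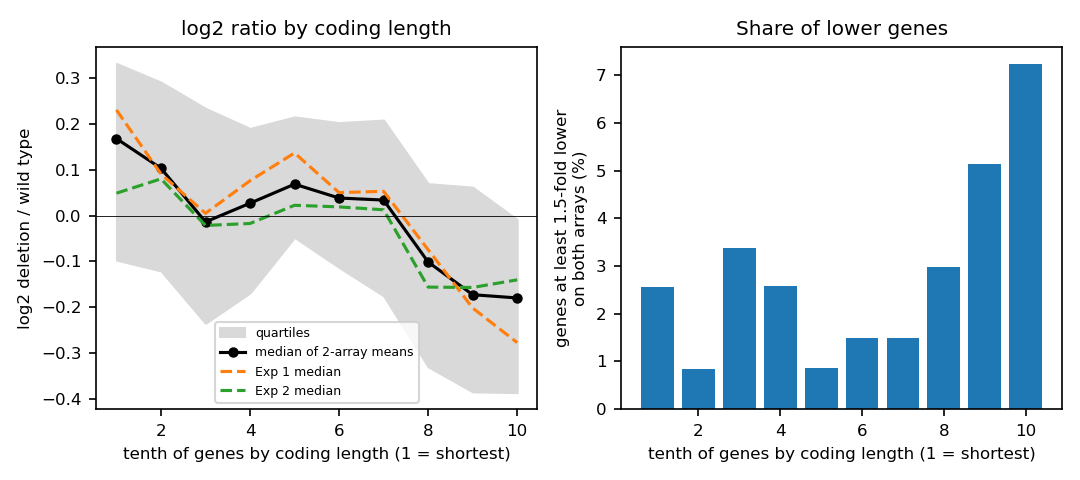
Left, median log2 ratio of deletion over wild type in 10 groups of genes ranked by coding length, with quartiles in grey and the medians of Exp 1 and Exp 2 dashed; right, the percentage of genes at least 1.5-fold lower on both arrays in each group. The median goes from 0.17 in the shortest to -0.18 in the longest group, where the share of lower genes is 7.23%.

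The plot by length also shows that the decline was not even: the medians of groups 4 to 7, counted from the shortest, lay between 0.03 and 0.07, and those of groups 8 to 10 between -0.18 and -0.10.

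Dye orientation moved with the difference between the arrays. A dye effect per gene was estimated from the other 4 comparisons with proper dye swaps and taken off both arrays for 3832 genes, an alternative added with the data in view. Its estimate correlated across genes with the deletion's own half-difference between the arrays at r = 0.75. After removal the correlation of the arrays went from 0.52 to 0.69 and the median SD from 0.19 to 0.12. Lower genes numbered 114 before and 112 (2.92%) after, of which 91 were shared, and higher genes 6 before and 15 (0.391%) after, of which 3 were shared. The array medians of small subunit ribosomal protein genes became 0.25 and 0.32, those of the large subunit 0.23 and 0.32, and those of sterol synthesis 0.38 and 0.36. The 15 higher genes then included ERG2, ERG3, RAD18, STE24 and, named after their values were seen, SRL1 (0.75 and 0.81) and the 4 near-identical asparaginase genes ASP3-1 to ASP3-4, which count as 1 signal.

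Many of the genes lower in the deletion were also lower in comparisons that share no RNA with it. In HCM1HA cells carrying HCM1 under a tet promoter (tetHCM1HA) over HCM1HA cells with the own promoter, where HCM1 read 5.17, 99 of the 116 lower genes measured lay below 0, against 50.8% of all genes; 28 were at least 1.5-fold lower there too, beside a background of 2.02%. In tetHCM1HA without over with 10 h of doxycycline, where HCM1 read 5.65, 118 of 136 lay below 0 (background 49.6%) and 66 were at least 1.5-fold lower (background 7.89%). Most genes low in the deletion thus also read below 0 with HCM1 in excess. In the tagged strain HCM1HA after 4 h of doxycycline over none, 36 of 43 lay below 0 (background 45.4%) and 14 were at least 1.5-fold lower (background 4.34%). After 10 h, where HCM1 read 1.02, 25 of 30 lay below 0 (background 47.9%) and 14 were at least 1.5-fold lower (background 10.8%). Over all genes but HCM1 the deletion correlated with these comparisons at r = 0.41 (n = 3768), 0.45 (n = 4104), 0.41 (n = 2373) and 0.39 (n = 2204), in the same order; the points share the array design, the labelling and the relation to coding length. With the length trend removed the Spearman coefficients were 0.38, 0.32, 0.35 and 0.37. These comparisons also share conditions with each other, so they are not separate repeats. Untreated tetHCM1HA is the numerator of both tet comparisons. Untreated HCM1HA is the denominator of tet over own promoter and of both tagged comparisons with doxycycline.

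RPN1 illustrates this, with means of -1.40 and -3.53 in the tet comparisons and -1.93 after 4 h of doxycycline. BPT1 read -0.81, -3.44 and -2.42 in the same order, and MDS3 -1.36, -2.54 and -1.89. Of the lowest 15, 12 of 13 measured in tet over own promoter, 14 of 15 in tet without over with doxycycline, 7 of 7 after 4 h and 6 of 6 after 10 h were below 0. The exception over the own promoter was YBL100C at 0.01, and that without doxycycline was SNZ1 at 0.58. SNZ1 read -0.06 over the own promoter and -0.30 after 10 h of doxycycline, so its low value of -1.23 in the deletion was not matched there. The tagged strain over wild type shares the wild type with the deletion comparison. There 4 of the lowest 15 had a value, from -2.14 to -0.30 in the first column. The second column mirrors the first with the opposite sign, so the direction of these values is not settled.

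A few lower genes stood on opposite sides in the deletion and with excess HCM1. At least 1.5-fold higher on both arrays of tet over own promoter were 3 of the 116 (background 5.01%), SSA4 at 1.87, TMT1 at 0.66 and AIM34 at 1.00. In tet without over with doxycycline they were 4 of 136 (background 8.33%), SSA4 at 2.30, STF2 at 0.98, YKR075C at 2.25 and AIM34 at 1.88. In the deletion TMT1, a methyltransferase gene, had a mean of -1.12 ± 0.17 and AIM34 of -0.67 ± 0.06, while STF2, of ATP synthase regulation, read -0.62 and -0.84 and YKR075C -0.86 and -0.82. These genes were singled out after their values were seen. SSA4 and AIM34 are opposite in both tet comparisons, while YKR075C read -0.85 over the own promoter. SSA4 read -1.28 after 4 h of doxycycline. Of the 9 higher genes, 4 were measured over the own promoter and 7 without over with doxycycline, and 0 were 1.5-fold apart on both arrays there. Of the 5 measured after 10 h of doxycycline, MMP1 was higher at 1.42 (background 10.6%) and CHA1 lower at -2.28 (background 10.8%).

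**Figure D4:**
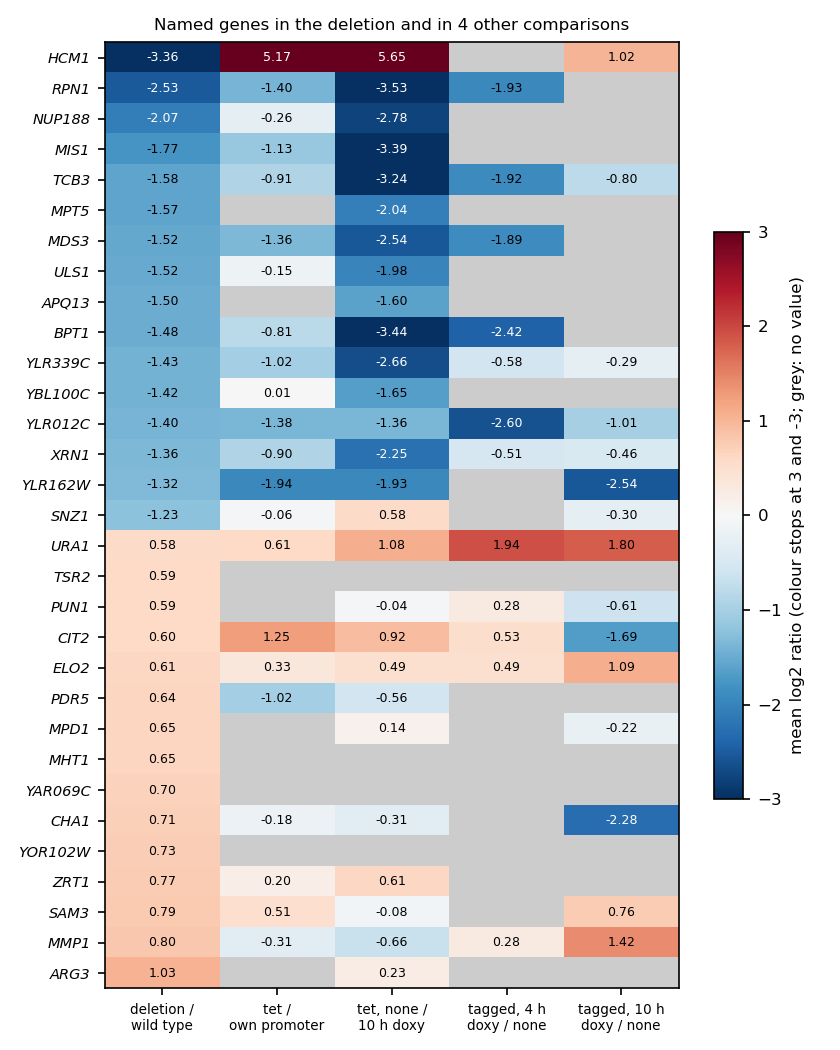
Mean log2 ratio (colour and printed value) of HCM1 and of the 15 lowest and 15 highest genes in the deletion (first column) and in the 4 comparisons that share no RNA with it; grey cells have no value. The lowest genes are blue in nearly every measured cell, HCM1 is the reverse in the tet columns, and the highest genes have no common direction.

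The colour map shows the contrast between the ends. Of the highest 15, 5 of 8 measured lay above 0 in tet over own promoter, 6 of 11 in tet without over with doxycycline, 5 of 5 after 4 h and 4 of 8 after 10 h. URA1 was above 0 in all 4, with means of 0.61, 1.08, 1.94 and 1.80, and so was ELO2, with means of 0.33, 0.49, 0.49 and 1.09. PDR5 went the other way with excess HCM1, at -1.02 and -0.56, though it missed the 1.5-fold limit in the deletion by its Exp 2 value of 0.58.

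The labelled mating type could be checked only in part, because a ratio shows no level. Of the a-cell genes, STE2 read -0.21 and -0.39, STE6 -0.42 and 0.14 and MFA2 0.68 and -0.43. The alpha-cell genes MF(ALPHA)2 and SAG1 read -0.50 and -0.62, and -0.10 and -0.24. STE2 and both of these alpha-cell genes thus read below 0 on both arrays, but STE6 and MFA2 did not. BAR1, a further a-cell gene, read -0.72 and -0.89 but lies on chromosome IX, whose genes were set aside. MFA1, MF(ALPHA)1 and STE3 had a value on Exp 2 only, at 0.38, 0.66 and 0.09. The highest of 3 alpha-cell genes measured on both arrays had a mean of 0.29.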

How the data were processed

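The authors deposited normalized log2 ratios, 1 column per array, for 12 arrays. The sources used here give no normalization method, software or array design. Scanner data were not analysed here. Per the labels, the 2 arrays of a comparison are dye swaps (Cy5/Cy3 in Exp 1, Cy3/Cy5 in Exp 2) and both columns run as deletion over wild type. Columns held 2520 to 6174 ORFs, with medians from -0.05 to 0.09. The number of arrays limits the precision; no depth applies. Since the series text describes dye swaps made per RNA sample, the 2 arrays counted as 1 RNA pair; the labels leave room for separate RNA.

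Each column was centred on its median and the 2 averaged. That median covered all values of the column, 5161 on Exp 1 and 6174 on Exp 2, so the 2 arrays were centred on different sets of ORFs. Genes and list members were chosen with earlier results of these data known. Named genes are HCM1, the 15 lowest and 15 highest genes off chromosome IX by the smaller absolute value of the 2 arrays with 1 sign, the 3 lowest and 3 highest of each list by mean where needed, and 3 neighbours on each side of HCM1. Of 4968 genes, 4701 matched the RefSeq gene table, which gave symbols and coding lengths (97.2% multiples of 3), and 267 did not. Of the distinct list symbols, 3 had no ORF.

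The test was limma 3.58.1 (lmFit, eBayes, R 4.3.3) on 1 value per comparison, adjusted by Benjamini-Hochberg over all 2538 ORFs tested. It takes the 3 control comparisons as without true change; of these the tagged strain over wild type used its first column, because its 2 columns mirror each other (r = -0.999). Data simulated for this comparison held 2538 genes, with 50 genes altered at each log2 size of 5, 3, 2 and 1, all together. The test recovered 45, 45, 24 and 4 of these, with 5 false calls. Many genes altered together make the adjusted threshold easier to reach. On the measured values HCM1, at a mean of -3.36, had a limma p of 0.000567 and an adjusted p of 0.9997. The simulated counts therefore do not give the power of the test on the measured values. Exp numbers pair the arrays, since they mark the dye orientation: half-differences between the arrays correlated across genes at 0.56 to 0.69 between every pair of the 5 comparisons with proper swaps. A smooth trend on length used lowess (fraction 0.5). Alternatives covered centring, single arrays, the fold limit, length, arrays as replicates with and without the dye block, each control left out, a robust fit and the dye effect. A search for forkhead motifs in promoters, part of the plan, was not run, and no promoter sequence was used here. Python 3.11.15, pandas 2.3.3 and statsmodels 0.14.6 were used.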

Additional observations from a re-analysis of the deposited data

How the results depend on the processing

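HCM1 stayed between -3.55 and -3.18 under every alternative run. Genes at least 1.5-fold lower on both arrays numbered 161, and 148 as deposited, 170 centred on genes off chromosome IX, 125 with the length trend removed and 112 with the dye effect removed (an alternative chosen after the data were seen, on fewer genes). They numbered 28 at 2-fold, 282 by the mean alone, 19 among ORFs on all 12 arrays, where fewer genes could count, and 362 to 401 on a single array. Genes at least 1.5-fold higher numbered 9, and 14 as deposited, 7 centred off chromosome IX, 8 with the length trend removed, 15 with the dye effect removed, 0 at 2-fold, 86 by the mean alone, 1 on all 12 arrays, and 284 to 400 on a single array; apart from the stricter and looser constructions the cause was not tested. The limma count was 0, and 97 with arrays as replicates and no block, 740 with the replicate block of dye orientation, and 2 without the control at 10 h of doxycycline, where HCM1 and RPN1 each had 1 residual degree of freedom. It was 0 with the mirrored columns averaged, without the tagged strain over wild type, without the 4 h control, with the robust fit, as deposited, and without replicate 1 or replicate 2 (0 to 0). Of the 37 list medians, 11 had the other sign on Exp 2 alone, 4 on Exp 1 alone, 6 with the length trend removed, 2 as deposited and 1 centred off chromosome IX; 0 named genes changed sign under these. With 1 RNA pair, no value here shows the spread between cultures.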

Other observations

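On the Exp 2 array, 983 further ORFs off chromosome IX had a value and none on Exp 1. Their median was 0.30, and in the deletion 87 stood 2-fold or more above wild type and 1 as far below. Beyond 2-fold lay 8.95% of them, against 1.59% of the genes with both arrays on the same Exp 2 array. The gene counts and list medians of the main comparison include none of them. They do enter the Exp 2 median on which that array was centred, and MFA1, MF(ALPHA)1 and STE3 above are among them.

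Some genes differed widely between the arrays: 56 by at least 1 log2 unit, 5 by at least 2 and 3 by at least 3. RTS2 read 3.52 on Exp 1 and -2.50 on Exp 2, ROF1 4.62 and -0.15, and SIP4, an activator gene of gluconeogenesis, -0.76 and 2.41. The mean of such a gene describes neither array.

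By chromosome, the medians off chromosome IX ran from -0.23 over 104 genes of chromosome VI, which holds TUB2, to 0.13 over 179 genes of chromosome III, which holds HCM1. On chromosome VI 9.62% of genes were at least 1.5-fold lower on both arrays, beside 3.24% of all. Over windows of 25 neighbouring genes the lowest median off chromosome IX was -0.39, around YPI1 on chromosome VI, and the highest 0.27, around PAT1 on chromosome III. Windows on chromosome IX ran from -1.14 to -0.78, so none off it reached that range.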
